A study of Mus musculus with 6 samples.

Results

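The 9 genes described here, Thy1, Vcam1, Ly6a, Enpp2, Clu, Cpb2, Penk, Fibin and Gdf10, encode cell surface or secreted proteins. They were matched by name in an expression table in which 21553 genes hold values. All 9 reached the expression minimum, a mean of 1 cRPKM over the 6 libraries, that 12315 genes met. Cpb2 met it only through the wildtype libraries, with means of 0.630 cRPKM in mutant and 2.24 cRPKM in wildtype kidneys. The genes were chosen for how they had differed between Fat4 mutant and wildtype kidneys in these same libraries, so their differences between the genotypes are given as a description and not as a test. Kidneys came from mouse embryos at E13.5: 3 Fat4-/- embryos and 3 Fat4+/+ embryos of 1 pregnant female, with strain given as C57BL6/6 after 6 backcrosses. Each library was made from total RNA of the kidney pair of 1 embryo, largely without ureter. The kidneys still held ureteric bud, condensing mesenchyme and the stroma around it. The sources used here do not say how the Fat4 allele was made or what it removes.

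The developing kidney is built by exchange of signals between ureteric bud, nephron progenitors and stroma. Fat4 is a giant cadherin that binds Dachsous cadherins on neighbouring cells, and the study asks how it restricts the nephron progenitor pool. Surface proteins such as Thy1 and Vcam1 let mesenchymal, endothelial and blood cells adhere to each other through integrins. Secreted proteins such as autotaxin, clusterin, enkephalins and members of the transforming growth factor family act on cells at a distance. In whole kidney RNA, fewer cells of a type and less RNA per cell cannot be told apart, and the values do not show which cells made a transcript, so a mesenchymal source of the 9 genes could not be checked.

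Levels are in cRPKM, an RPKM value with a correction, which is scaled by gene length and by library size. Sums over all genes ran from 473695 to 503223 cRPKM per library, and genes above 0 numbered 17485 to 17705. Read totals are unknown. Relative depth, estimated from the spacing of low values, was 0.906 to 1.04 of wildtype embryo 1, although this spacing accounted for only 17 to 23 of 28 to 35 low genes per library. Fat4 itself was at 7.82, 7.20 and 7.49 cRPKM in mutant embryos 1 to 3, against 16.74, 15.69 and 16.83 cRPKM in wildtype embryos 1 to 3, so that the libraries separated by their labels. Y-linked genes were expressed in mutant embryo 1 and in the 3 wildtype embryos and were near 0 in mutant embryos 2 and 3. Their summed level was 69.6 cRPKM in mutant embryo 1 and 0.0800 and 0.150 cRPKM in the others of that genotype, against 65.3 to 73.0 cRPKM in wildtype embryos.

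The proximal promoters of Cpb2 and Gdf10 are shown because these were the members with the lowest mutant level relative to wildtype (Cpb2) and with overlapping groups (Gdf10). Both lie on the plus strand of chromosome 14. They are the 250 bases before the transcription start in RefSeq on GRCm38.p6, at chr14:75242037-75242286 for Cpb2 and chr14:33923337-33923586 for Gdf10. Capitals mark a match to the cAMP response element, the only searched motif found in either.

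Cpb2: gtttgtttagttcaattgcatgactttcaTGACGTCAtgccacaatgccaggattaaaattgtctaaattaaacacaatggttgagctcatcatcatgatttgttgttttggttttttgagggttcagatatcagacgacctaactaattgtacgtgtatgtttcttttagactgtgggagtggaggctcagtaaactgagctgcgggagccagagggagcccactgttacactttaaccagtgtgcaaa
Gdf10: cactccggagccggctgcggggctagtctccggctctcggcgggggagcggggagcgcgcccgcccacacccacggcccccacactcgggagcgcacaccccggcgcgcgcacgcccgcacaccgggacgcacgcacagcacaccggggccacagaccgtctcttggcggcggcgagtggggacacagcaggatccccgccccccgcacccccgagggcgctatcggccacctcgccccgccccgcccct

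Promoters of 3 of the 9 genes were matched by symbol, the third being that of Fibin. Guanine and cytosine made up 40.8% of the Cpb2 window and 78.8% of the Gdf10 window. The cAMP response element (TGACGTCA, searched on both strands) began 221 bases before the start of Cpb2, and 1.55% of 32851 promoter windows of the same length held it. A variant known from the enkephalin gene (TGCGTCA) and the AP-1 motif (TGANTCA) were in none of the 3 windows, and in 1.75% and 6.75% of all windows. The motif of the Tead factors, which carry Yap and Taz to DNA (GGAATG), had 1 match, in Fibin, and 12.6% of all windows held it. These matches describe letters and were not tested as binding sites.

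Among the 9 genes 6 were called lower in mutant kidneys, none was called higher and 3 were not called (limma across all 12315 genes, adjusted p under 0.05). Over all tested genes 0.877% were called lower and 0.552% higher. The 6 called genes, Thy1, Vcam1, Ly6a, Enpp2, Clu and Cpb2, had mutant means between 28.2% and 67.0% of the wildtype mean. Of these Cpb2 could be tested only because its wildtype values raised its mean above the minimum. Penk was lower by a similar amount with a wider spread, Gdf10 overlapped between genotypes, and Fibin was the 1 gene with a higher mutant mean. Mutant values lay below all wildtype values for 7 of the 9 genes, against 11.0% of tested genes, and above them for Fibin, against 7.23%. The median log2 fold change of the 9 genes was -0.69, against -0.01 over all tested genes. Because the genes were picked from this contrast, nothing is read from these shares.

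**Figure D1:**
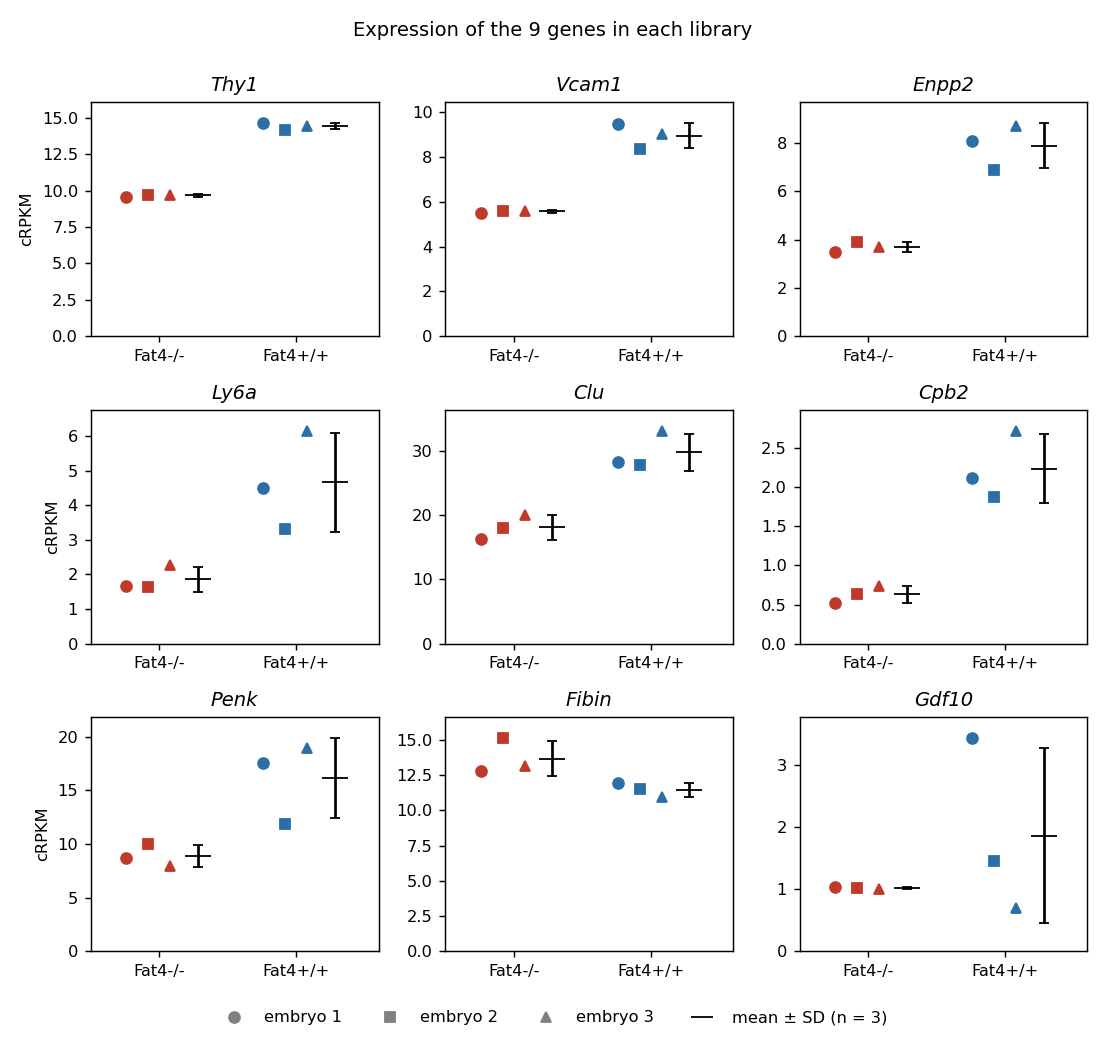
Level of each gene in cRPKM (linear axes from 0) in Fat4-/- libraries (red) and Fat4+/+ libraries (blue), with embryo 1, 2 and 3 as circle, square and triangle and the mean ± SD in black (n = 3). Thy1 and Vcam1 form tight groups, Ly6a, Penk and Gdf10 scatter in wildtype embryos, and Fibin is higher in the mutant embryos.

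Among surface proteins, Thy1 is a small glycoprotein of the immunoglobulin superfamily held in the membrane by a lipid anchor, found on neurons, T cells and fibroblasts. It was at 9.57, 9.73 and 9.71 cRPKM in mutant embryos 1 to 3, against 14.65, 14.20 and 14.48 cRPKM in wildtype embryos 1 to 3. All mutant libraries were low, all wildtype libraries were high, and the lowest wildtype value was 1.46 times the highest mutant value. Its mean was 9.67 ± 0.0872 cRPKM in mutant and 14.4 ± 0.227 cRPKM in wildtype kidneys (SD, n = 3 each), a log2 fold change of -0.53 (SE 0.0380). Thy1 varied little within a genotype. Its residual SD was 0.0172 on the log2(cRPKM + 1) scale, and 1.01% of 1484 genes of like level (within 0.25 on that scale) had a smaller one. The gene (ENSMUSG00000032011) lies on chromosome 9, 44043384 to 44048579 in GRCm38.

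Vcam1 encodes a transmembrane adhesion protein of the same superfamily that leukocytes and other cells bind through integrins with an alpha 4 chain. It was at 5.49, 5.61 and 5.60 cRPKM in mutant embryos, against 9.49, 8.36 and 9.01 cRPKM in wildtype embryos. The mutant libraries differed from each other by a factor of 1.02 and the wildtype libraries by 1.14, and the groups stood 1.49-fold apart at their nearest. The mutant mean was 62.2% of wildtype, with a log2 fold change of -0.60 (SE 0.0521). Of the pairs among the 9 genes, Thy1 and Vcam1 had the most alike profiles over the 6 libraries, with a root mean square difference of 0.0482 on the centred log2 scale. Vcam1 (ENSMUSG00000027962, 116109949 to 116129688) lies on chromosome 3, as Fat4 does, and 77.1 Mb from it.

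Ly6a, also called Sca-1, is a lipid-anchored protein of the Ly6 family used in mice to mark blood stem cells and some endothelial and stromal cells. It was at 1.66, 1.65 and 2.27 cRPKM in mutant embryos, against 4.51, 3.31 and 6.15 cRPKM in wildtype embryos. The groups did not overlap, but wildtype embryo 3 was 1.86 times as high as wildtype embryo 2. The means were 1.86 ± 0.355 cRPKM in mutant and 4.66 ± 1.43 cRPKM in wildtype kidneys (SD, n = 3 each), with a log2 fold change of -0.96 (SE 0.169). Its residual SD of 0.286 was larger than that of 96.8% of 836 genes of like level. Ly6a lost its call without mutant embryo 1, 2 or 3 or without wildtype embryo 1. Ly6a (ENSMUSG00000075602, chromosome 15, 74994877 to 74998031) has close relatives in sequence, and the sources used here do not say how shared reads were handled, so its level is uncertain.

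Among secreted proteins, Enpp2 encodes autotaxin, the enzyme that makes the lipid signal lysophosphatidic acid outside cells. It was at 3.49, 3.89 and 3.67 cRPKM in mutant embryos, against 8.07, 6.87 and 8.72 cRPKM in wildtype embryos. Every mutant library was low and the gap between the groups was 1.77-fold. The level was 2.14-fold lower in mutant kidneys, with a log2 fold change of -0.92 (SE 0.0789). Enpp2 (ENSMUSG00000022425) lies on chromosome 15, 54838901 to 54952892.

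Clu encodes clusterin, a secreted chaperone carried on lipoproteins and made by many epithelia. It was the most abundant of the 9 genes, at 16.21, 17.95 and 20.06 cRPKM in mutant embryos, against 28.24, 27.83 and 33.08 cRPKM in wildtype embryos. Embryo 3 was the highest within each genotype and the groups did not overlap. The means were 18.1 ± 1.93 and 29.7 ± 2.92 cRPKM in mutant and wildtype kidneys (SD, n = 3 each), with a log2 fold change of -0.69 (SE 0.0863). Clu lost its call without mutant embryo 1 or 2. It lies on chromosome 14 (ENSMUSG00000022037, 65968483 to 65981547).

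Cpb2 encodes a plasma carboxypeptidase that slows the breakdown of fibrin clots and is made mainly by hepatocytes in the adult. It was at 0.52, 0.63 and 0.74 cRPKM in mutant embryos, against 2.12, 1.87 and 2.72 cRPKM in wildtype embryos. The lowest wildtype value was 2.53 times the highest mutant value, the widest gap among the 9 genes. The mutant mean was 28.2% of wildtype, which is a 3.55-fold difference in cRPKM. The log2 fold change of -0.98 (SE 0.103) understates this because the pseudocount of 1 weighs on so low a gene, and it was -1.67 with a pseudocount of 0.1. All 8 hepatocyte markers summed to 1.77 to 2.39 cRPKM in mutant and 1.53 to 2.31 cRPKM in wildtype libraries, and these ranges overlapped. Most of the sum was Apoa2, the 1 marker high enough to test, at means of 1.20 cRPKM in mutant and 1.23 cRPKM in wildtype kidneys. Fgb, a fibrinogen chain gene named after its values were seen, was at 0.04, 0.05 and 0.10 cRPKM in mutant embryos, against 0.21, 0.14 and 0.27 cRPKM in wildtype embryos. Its groups did not overlap, its libraries were ordered as for Cpb2 within each genotype, and the part of such cells in the Cpb2 values was not tested. Other hepatocyte markers too low to test went mostly the other way. Alb had means of 0.137 cRPKM in mutant and 0.0400 cRPKM in wildtype kidneys, and Afp 0.270 and 0.193 cRPKM. Apoa1, Ttr and Serpina1a also had higher mutant means and Ahsg a lower one, and the groups of all these genes overlapped. No hepatocyte marker was at 0 in every library, and albumin (Alb) was at most 0.30 cRPKM, in mutant embryo 3. Cpb2 (ENSMUSG00000021999, chromosome 14, 75242287 to 75283555) overlaps a processed pseudogene and an annotated microRNA on the same strand, whose reads could be counted with it.

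Penk encodes the precursor of the enkephalins, opioid peptides of neurons that are also made in some mesenchyme of the embryo. It was at 8.71, 9.97 and 7.96 cRPKM in mutant embryos, against 17.58, 11.89 and 18.90 cRPKM in wildtype embryos. Wildtype embryo 2 was low and stood 1.19-fold above the highest mutant library. Penk was not called, with a log2 fold change of -0.77 (SE 0.152) and a residual SD larger than in 99.2% of 1481 genes of like level. Without wildtype embryo 2 it was called, at -0.97. Penk (ENSMUSG00000045573, chromosome 4, 4133531 to 4138819) overlaps the transcript A830012C17Rik on the opposite strand. Enpp2 and Vcam1 also overlap transcripts on the other strand (Gm26684 and Gm43109). Use of the strand in counting is not stated, so reads of such partners cannot be told apart.

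Fibin encodes a small secreted protein first known from zebrafish, where it acts in the start of the pectoral fin bud. It was at 12.76, 15.10 and 13.17 cRPKM in mutant embryos, against 11.95, 11.49 and 10.97 cRPKM in wildtype embryos. The groups did not overlap, although mutant embryo 1 lay close to the highest wildtype library and mutant embryo 2 stood above the rest. Fibin was not called (log2 fold change 0.23, SE 0.0646). It lies on chromosome 2 (ENSMUSG00000074971, 110360917 to 110363183).

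Gdf10 encodes a secreted ligand of the transforming growth factor beta superfamily, closest in sequence to Bmp3. It was at 1.04, 1.02 and 1.01 cRPKM in mutant embryos, against 3.43, 1.45 and 0.70 cRPKM in wildtype embryos. The mutant libraries were nearly equal, whereas the wildtype libraries spread 4.90-fold and lay on both sides of them. Gdf10 was not called (log2 fold change -0.39, SE 0.285), and without wildtype embryo 1 its log2 fold change was -0.01. Dcn and Postn, matrix genes of fibroblasts, had the profiles nearest to that of Gdf10. Dcn was at 15.51, 14.82 and 14.38 cRPKM in mutant embryos, against 36.47, 19.07 and 13.93 cRPKM in wildtype embryos, with the same order of wildtype libraries. The summed level of 10 stroma markers, which include Dcn, was 684 to 730 cRPKM in mutant libraries and 904, 778 and 701 cRPKM in wildtype embryos 1 to 3, and its part in the Gdf10 values was not tested. Gdf10 (ENSMUSG00000021943) lies on chromosome 14, 33923587 to 33937983.

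**Figure D2:**
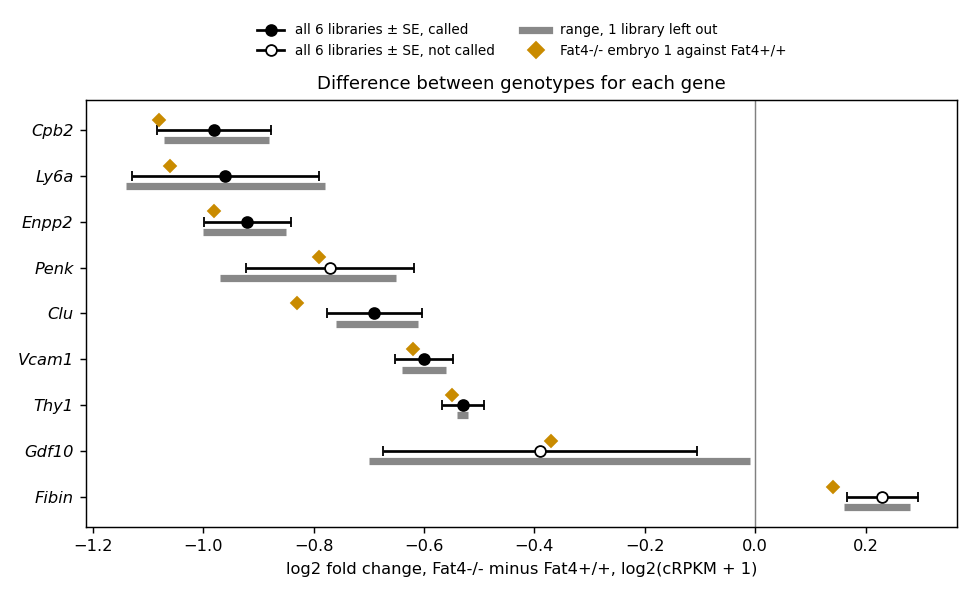
Log2 fold change of each gene, Fat4-/- minus Fat4+/+, on the log2(cRPKM + 1) scale, with all 6 libraries (circle ± SE, filled where called), as the range with 1 library left out (grey bar) and for Fat4-/- embryo 1 alone against the wildtype embryos (diamond). Thy1 spans -0.54 to -0.52 when a library is left out and Gdf10 -0.70 to -0.01.

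Levels within a genotype set the genes in an order. In mutant kidneys the order of mean cRPKM was Clu (18.1), Fibin (13.7), Thy1 (9.67), Penk (8.88), Vcam1 (5.57), Enpp2 (3.68), Ly6a (1.86), Gdf10 (1.02) and Cpb2 (0.630). There the ranges of Thy1 and Penk overlapped, and those of the other neighbours did not. In wildtype kidneys it was Clu (29.7), Penk (16.1), Thy1 (14.4), Fibin (11.5), Vcam1 (8.95), Enpp2 (7.89), Ly6a (4.66), Cpb2 (2.24) and Gdf10 (1.86). There the ranges of Penk and Thy1 overlapped, as did those of Penk and Fibin, of Vcam1 and Enpp2, of Ly6a and Gdf10 and of Cpb2 and Gdf10. In wildtype kidneys Clu stood above 75.5% of tested genes and Gdf10 above 6.76%.

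Sex was not balanced between the genotypes, and mutant embryo 1 is the 1 mutant library with Y-linked expression, as all wildtype libraries have. In that library each of the 6 called genes and Penk lay below every wildtype value, and Fibin above. Against the wildtype libraries, mutant embryo 1 alone had log2 fold changes of -0.55 for Thy1, -0.62 for Vcam1, -0.98 for Enpp2, -1.06 for Ly6a, -0.83 for Clu, -1.08 for Cpb2 and -0.79 for Penk. It had 0.14 for Fibin and -0.37 for Gdf10. With the Y-linked score as a covariate none of the 9 genes was called in limma, and 2 of all 12315 genes were. In that fit 7 of the 9 were at an unadjusted p under 0.05, against 689 of all tested genes. A single embryo carries that comparison, so the effect of sex and that of genotype could not be estimated apart with replicates.

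Deviations of libraries from their genotype mean do not contain the difference between genotypes. Wildtype embryo 2 had the lowest wildtype value for 7 of the 9 genes, against 31.5% of tested genes, and wildtype embryo 3 had the highest for 5, against 36.8%. Ly6a, Clu and Cpb2 were above their genotype mean in both embryos numbered 3, by 0.20, 0.15 and 0.10 in the mutant and by 0.37, 0.15 and 0.21 in the wildtype on the log2 scale. The mean of 6 early nephron markers was also up in these embryos, by 0.15 in mutant embryo 3 and 0.20 in wildtype embryo 3. Its order in the others differed, at -0.04 and -0.12 in mutant embryos 1 and 2 and -0.14 and -0.06 in wildtype embryos 1 and 2. Ly6a, Clu and Cpb2 were lowest in wildtype embryo 2. Ureteric, smooth muscle and nerve markers were up by 0.14, 0.24 and 0.22 in wildtype embryo 3, but at -0.02, 0.01 and -0.07 in mutant embryo 3. The early nephron markers summed to 83.2 to 98.1 cRPKM in mutant and 94.4 to 123 cRPKM in wildtype libraries, and none was at 0. All 6 had a log2 fold change below 0, and 1 was called lower. Their part in the values of Ly6a, Clu and Cpb2 was not tested.

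**Figure D3:**
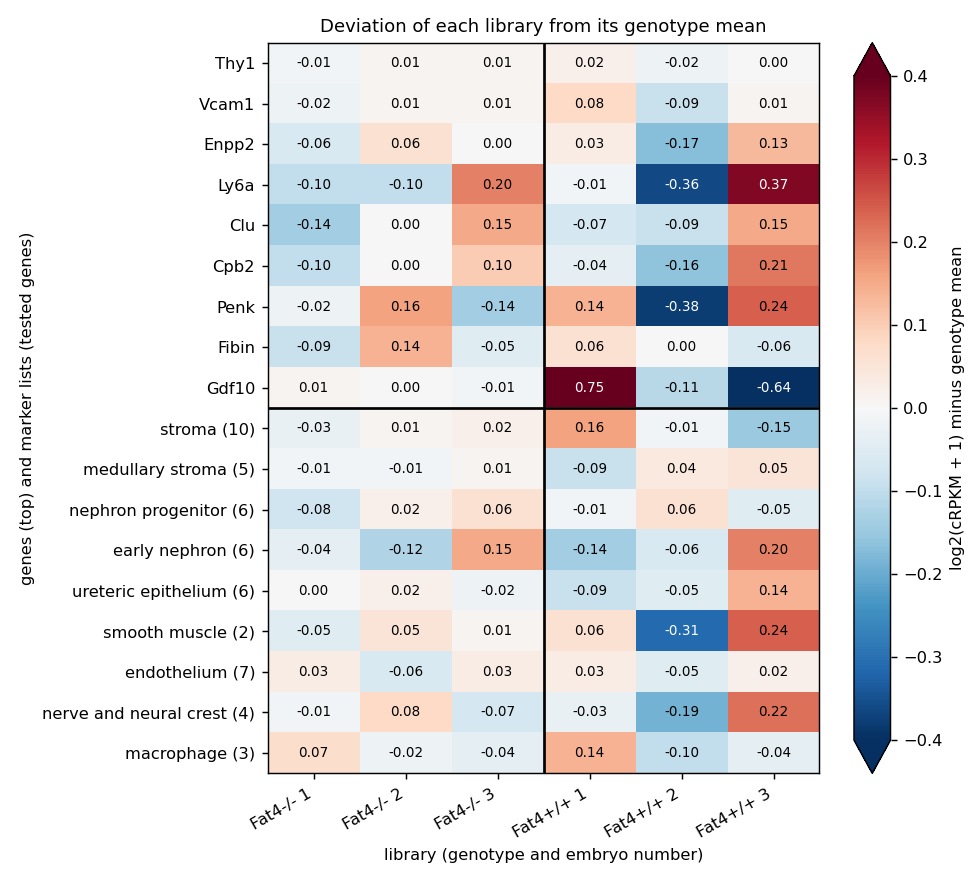
Deviation of each library (columns, Fat4-/- then Fat4+/+) from the mean of its genotype on the log2(cRPKM + 1) scale, for the 9 genes (top) and for the mean over tested markers of 9 cell type lists (bottom). Gdf10 runs from 0.75 in wildtype embryo 1 to -0.64 in wildtype embryo 3, past the ends of the colour scale, while Thy1 stays within 0.02.

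Penk deviated from the mean of its genotype by -0.02, 0.16 and -0.14 in mutant embryos 1 to 3 and by 0.14, -0.38 and 0.24 in wildtype embryos 1 to 3. Wildtype embryos were thus ordered as for Ly6a, Clu and Cpb2, but mutant embryo 3 was the lowest mutant library for Penk and the highest for those genes. The 2 tested smooth muscle markers deviated by 0.06, -0.31 and 0.24 in wildtype embryos 1 to 3, and the 4 tested markers of nerve and neural crest by -0.03, -0.19 and 0.22. Smooth muscle markers, 5 in all, summed to 16.2 to 17.2 cRPKM in mutant and 15.6 to 24.2 cRPKM in wildtype libraries. Most of that sum was the 2 tested markers, Acta2 and Tagln, which had lower mutant means with overlapping groups. Myh11, Cnn1 and Actg2, too low to test, were lower without overlap, as were 9.81% of all such genes. Their means were 0.307, 0.127 and 0.270 cRPKM in mutant and 0.433, 0.220 and 0.457 cRPKM in wildtype kidneys. Nerve and neural crest markers, 7 in all, summed to 15.7 to 19.3 cRPKM in mutant and 14.4 to 20.7 cRPKM in wildtype libraries. Among them Tubb3, a tubulin of neurons, was at 4.57 cRPKM in wildtype embryo 3 and at most 1.25 in the other libraries. No marker of either list was at 0 in every library, and their part in the Penk and Thy1 values was not tested. Endothelial markers, which bear on Ly6a and Vcam1, summed to 140 to 150 cRPKM in mutant and 149 to 157 cRPKM in wildtype libraries. Of these 7 none was called, with 2 at an unadjusted p under 0.05 (limma), against 1607 of 12315 tested genes. The median log2 fold change of the 7 was -0.03. None was at 0, the summed ranges of the genotypes overlapped, and their part in the values of Ly6a and Vcam1 was not tested.

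Genes with the most alike profiles were found by the root mean square difference of centred log2(cRPKM + 1) over the 6 libraries, a measure that includes the genotype difference. Thy1 was nearest to Pdgfra, a growth factor receptor of stromal cells (0.0451), and to the calcium sensor gene Ncald (0.0504). Vcam1 was nearest to the folate receptor gene Folr1 (0.0536) and to D630003M21Rik (0.0539). Clu was nearest to Ggt1, an enzyme of the tubule brush border (0.0478). Ly6a was nearest to D630042F21Rik (0.0884) and to Dpp4, a peptidase of the brush border and other membranes (0.134). Dpp4 was at 3.39, 2.63 and 3.60 cRPKM in mutant embryos, against 6.36, 5.66 and 7.92 cRPKM in wildtype embryos.

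Enpp2 was nearest to Fat4 itself (0.106) and to the ammonia channel gene Rhcg (0.113). Cpb2 was nearest to D630042F21Rik (0.119) and Fat4 (0.120). Penk was nearest to Tspan8, a tetraspanin (0.101), and to Sostdc1, a secreted inhibitor of Bmp and Wnt signals (0.160). Fibin was nearest to Phlda3, a target of p53 (0.0186), and to H2-DMa (0.0300). Phlda3 was at 30.36, 35.70 and 31.49 cRPKM in mutant embryos, against 27.56, 27.52 and 26.18 cRPKM in wildtype embryos. Gdf10 was nearest to Dcn (0.0661) and Postn (0.110).

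Partner genes, which act with the 9 genes as receptors, enzymes, relatives or inhibitors, were taken from 8 lists with 116 genes that hold values, of which 71 could be tested. Of these 3 were called lower and none higher in mutant kidneys, or 4.23%. Over all tested genes 0.877% were called lower and 1.43% in either direction. Log2 fold changes of the 71 ran from -0.63 to 0.37, with a median of -0.02 against -0.01 over all genes. At an unadjusted p under 0.05 (limma) there were 19 of the 71, against 1607 of all 12315 tested genes. The partner lists were chosen with earlier results of these data known, so nothing is read from these shares. The 3 called genes were C1s, a protease that starts the classical complement cascade, Procr, the endothelial protein C receptor, and Lypd6b, a lipid-anchored relative of Ly6a.

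C1s was at 6.52, 6.40 and 6.15 cRPKM in mutant embryos, against 9.50, 7.84 and 8.49 cRPKM in wildtype embryos (log2 fold change -0.38, SE 0.0654, adjusted p = 0.0335 in limma). Procr was at 2.26, 2.37 and 2.23 cRPKM in mutant embryos, against 3.21, 2.95 and 2.93 cRPKM in wildtype embryos (log2 fold change -0.29, SE 0.0552, adjusted p = 0.0464 in limma). Lypd6b was at 2.45, 2.46 and 2.46 cRPKM in mutant embryos, against 3.33, 3.01 and 3.41 cRPKM in wildtype embryos (log2 fold change -0.30, SE 0.0563, adjusted p = 0.0479 in limma). The groups of all 3 were apart. C1s kept its call with 1 library left out only without wildtype embryo 2, and Procr and Lypd6b kept theirs in no such fit. Adjusted p (limma) with 1 library left out ran from 0.0309 to 0.130 for C1s, from 0.0703 to 0.171 for Procr and from 0.0514 to 0.160 for Lypd6b.

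**Figure D4:**
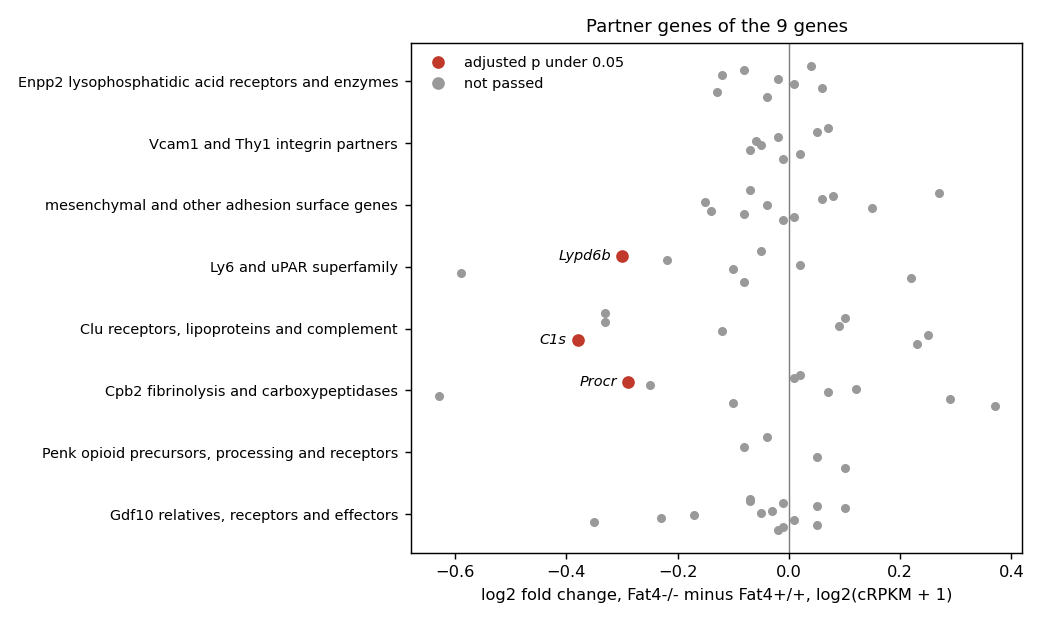
Log2 fold change of the tested partner genes (Fat4-/- minus Fat4+/+, log2(cRPKM + 1) scale), 1 row per list and 1 point per gene, with genes at an adjusted p under 0.05 in red. Only C1s, Procr and Lypd6b are red, and all points lie between -0.63 and 0.37.

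Around Enpp2, none of 8 tested receptors and enzymes of lysophosphatidic acid passed. Ppap2a and Ppap2b, phosphatases that break the lipid down, were at log2 fold changes of -0.12 and -0.08 (adjusted p = 0.317 and 0.428 in limma). Around Vcam1 and Thy1, none of 8 integrin partners passed, with Itga9 at -0.07 and Itgb1 at -0.06 (adjusted p = 0.570 and 0.582). Itga4, the alpha chain of the main Vcam1 receptor and named after its values were seen, was at 5.50 ± 0.419 cRPKM in mutant and 5.54 ± 0.525 cRPKM in wildtype kidneys (SD, n = 3 each, log2 fold change -0.01, SE 0.0731). Of 11 tested adhesion and mesenchymal surface genes none passed. Ngfr, a neurotrophin receptor, was at 0.27 (SE 0.0700, adjusted p = 0.118) and Eng, a coreceptor on endothelium, at 0.15 (SE 0.0521, adjusted p = 0.253), both above 0 where Thy1 and Vcam1 were below.

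In the Ly6 family 1 of 8 tested members passed (Lypd6b), and Lypd6 was at -0.22 (SE 0.0645, adjusted p = 0.169). Ly6c1, another relative of Ly6a, was named after its values were seen. It was at 2.67, 1.31 and 3.22 cRPKM in mutant embryos, against 4.87, 2.98 and 4.26 cRPKM in wildtype embryos. Its groups overlapped (log2 fold change -0.59, SE 0.221, adjusted p = 0.298 in limma). Wildtype embryo 2 was its lowest wildtype library, as for Ly6a. Of the 8 tested members 6 had a log2 fold change below 0. Among receptors, lipoproteins and complement genes that act with clusterin, 1 of 8 passed (C1s). Vldlr, a lipoprotein receptor, was at 6.24 ± 0.600 cRPKM in mutant and 8.12 ± 0.737 cRPKM in wildtype kidneys (SD, n = 3 each, log2 fold change -0.33, adjusted p = 0.0893 in limma). Among genes of fibrinolysis and carboxypeptidases, 1 of 10 passed (Procr). Cpn1, another plasma carboxypeptidase, was at 1.22 ± 0.159 cRPKM in mutant and 2.48 ± 0.705 cRPKM in wildtype kidneys (SD, n = 3 each, log2 fold change -0.63, SE 0.132, adjusted p = 0.0663 in limma).

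None of 4 tested genes of opioid precursors, their processing and their receptors passed. Cpe, which trims enkephalins from their precursor, was at 0.10 and Ogfrl1 at -0.08 (adjusted p = 0.481 and 0.579 in limma). Among relatives, receptors and effectors of Gdf10 none of 14 passed. Fstl1, a secreted glycoprotein that binds ligands of this family, was at 170 ± 2.37 cRPKM in mutant and 200 ± 10.3 cRPKM in wildtype kidneys (SD, n = 3 each, log2 fold change -0.23, SE 0.0485, adjusted p = 0.0691 in limma). Bmp3 was at 2.56, 2.75 and 2.90 cRPKM in mutant embryos, against 4.78, 3.07 and 3.54 cRPKM in wildtype embryos (log2 fold change -0.35, SE 0.117, adjusted p = 0.250 in limma). As with Gdf10, its highest value was in wildtype embryo 1, but the groups of Bmp3 did not overlap. Smad3, a mediator of such signals inside the cell, was at 0.10 (adjusted p = 0.386 in limma).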

How the data were processed

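RNA of 6 E13.5 mouse kidney libraries was measured, 1 per embryo. The authors deposited 1 table of corrected RPKM (cRPKM) of 22667 genes, 1114 without values. Per the file headers reads were trimmed, and per the submitters' processing notes Bowtie and mm9 were used. The sources used here give neither versions nor the method of correction. Columns were matched to samples by the header text in their descriptions. The test, 2-sided and with genotype as the only term, was limma 3.58.1 (R 4.3.3, eBayes with trend) on log2(cRPKM + 1) for the 12315 genes whose mean reached 1 cRPKM, with Benjamini-Hochberg adjustment over all of them and calls at 0.05. The script was tested on simulated data. An exact permutation test of 3 against 3 cannot go below p = 0.1, so none is given. The embryos are separate animals of 1 litter, so p-values measure the spread within it. No pair of libraries held the same value in more than 0.739% of tested genes.

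The 9 genes, the partner lists and the marker lists were chosen with earlier results of these data known. Named genes besides the 9 were Fat4, each called partner and the 2 tested partners of smallest unadjusted p in a list (3 in lists with over 12 tested), and the 2 genes nearest in profile to each of the 9, of which 1 is not reported here. Itga4, Ly6c1, single genes of the marker lists and genes too low to test were added after values were seen. Further marker lists (medullary stroma, nephron progenitors, ureteric epithelium, macrophages, adrenal cortex, mesothelium and gonad) were used for comparison. Positions are from GENCODE M21 on GRCm38, not from mm9, to which the values refer. Alternatives were a pseudocount of 0.1, no filter on low values, quantile normalisation, the embryo number as replicate block, the Y-linked score as covariate, each library left out, and, added after seeing the data, the 4 libraries with Y-linked expression.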

Additional observations from a re-analysis of the deposited data

How the results depend on the processing

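No gene of the 9 changed the sign of its fold change in any of 12 alternatives. Of the 9 genes, 6 were called with a pseudocount of 0.1, with quantile normalisation and with the replicate block, and 4 without a filter on low values. With 1 library left out 4 to 7 were called, with Thy1, Vcam1, Enpp2 and Cpb2 among them each time. None was called with the Y-linked score as covariate (0 in limma), with 7 of 9 at an unadjusted p under 0.05, against 689 of 12315 tested genes. Residual degrees of freedom are fewer there. The 4 libraries with Y-linked expression hold 1 mutant embryo, so only fold changes are used from them. Over all genes, 176 calls became 32 without a filter on low values and 273 with the embryo number as replicate block. They became 2 with the Y-linked score and 24 to 132 with 1 library left out. Of the partner genes, 3 calls became 6 with the replicate block (C1s, Cpm, Cpn1, Ly6c1, Ngfr and Vldlr), 1 with quantile normalisation (C1s) and 0 to 2 with 1 library left out. Procr and Lypd6b lost their calls in both of the named fits and passed in 1 of 12 alternatives each. In limma the partner calls became 0 without the filter and with the Y-linked score, with 19 and 11 at an unadjusted p under 0.05. Over all genes 2273 of 18735 and 689 of 12315 were at that level in these fits. The causes were not tested. The embryo numbers were not taken to pair the embryos. Same-numbered embryos carry neighbouring library numbers in the column headers, and whether they were handled together is not stated. Same-numbered deviations correlated at 0.099, 0.205 and 0.277 across genes. Mutant embryo 1 correlated best with wildtype embryo 3 (0.106) and mutant embryo 2 with wildtype embryo 1 (0.227). Read totals are unknown, so the counting error of low genes such as Cpb2 and Gdf10 cannot be given.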

Other observations

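Partner genes too low to test were listed above 0 in some library for 43 genes, of which 26 had a lower mean in mutant kidneys, 14 a higher one and 3 the same. That is 60.5% lower, against 59.3% of all 6420 genes too low to test. Groups did not overlap for 9 of the 43 with lower and 1 with higher mutant values, and 9.81% of all genes too low to test were lower without overlap. The share of all such genes that were higher without overlap was not determined, so nothing is read from the 1 gene. Among them Serpinf2, an inhibitor of plasmin, was at 0.13, 0.12 and 0.34 cRPKM in mutant embryos, against 0.60, 0.43 and 1.12 cRPKM in wildtype embryos, with embryo 3 the highest in each genotype, as for Cpb2. Pcsk2, a convertase that cuts prohormones such as the Penk product, was at 0.20, 0.23 and 0.22 cRPKM in mutant embryos, against 0.36, 0.31 and 0.48 cRPKM in wildtype embryos, with wildtype embryo 2 the lowest wildtype library, as for Penk. The delta opioid receptor gene Oprd1 was at 0.26, 0.26 and 0.32 cRPKM in mutant embryos, against 0.40, 0.36 and 0.37 cRPKM in wildtype embryos. Pdyn, the precursor of the dynorphins, was the 1 gene higher without overlap, at 0.23, 0.18 and 0.18 cRPKM in mutant embryos, against 0.10, 0.09 and 0.16 cRPKM in wildtype embryos. The mu receptor gene Oprm1 is listed at 0 in every library. Ly6c2, a close relative of Ly6a, is listed at 0.63 cRPKM in mutant embryo 1 and at 0 in the other libraries. These genes were named after their values were seen.

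Marker lists for other cells gave the following summed levels. Nephron progenitor markers summed to 278 to 318 cRPKM in mutant and 225 to 246 cRPKM in wildtype libraries, and Eya1 and Osr1 were the 2 of 6 called higher. Ureteric markers summed to 164 to 175 cRPKM in mutant and 179 to 204 cRPKM in wildtype libraries. None of the 6 was called (limma), and 4 were at an unadjusted p under 0.05, as were 1607 of all 12315 tested genes. Medullary stroma markers summed to 419 to 486 cRPKM in mutant and 400 to 451 cRPKM in wildtype libraries, with Alx1 the 1 of 5 called lower. Most of that sum was Cdkn1c, at means of 397 cRPKM in mutant and 377 cRPKM in wildtype kidneys. The median log2 fold change of the 5 was -0.20, with 3 below 0, among them Wnt5a at 6.77 cRPKM in mutant and 8.46 cRPKM in wildtype kidneys (adjusted p = 0.0590 in limma). Mesothelial markers summed to 74.0 to 77.6 cRPKM in mutant and 66.9 to 69.6 cRPKM in wildtype libraries. Nearly all of that sum was Wt1, which nephron progenitors also express, at means of 72.8 cRPKM in mutant and 64.7 cRPKM in wildtype kidneys. The other markers had lower mutant means, with 2.22 cRPKM in mutant and 3.07 cRPKM in wildtype kidneys for Krt19. Upk3b was at 0.327 cRPKM in mutant and 0.383 cRPKM in wildtype kidneys, and Msln at 0.363 cRPKM in mutant and 0.427 cRPKM in wildtype kidneys. Macrophage markers summed to 7.80 to 8.99 cRPKM in mutant and 7.27 to 9.29 cRPKM in wildtype libraries. Adrenal cortex markers summed to 2.30 to 2.41 cRPKM in mutant and 2.13 to 2.38 cRPKM in wildtype libraries. Gonad markers summed to at most 17.1 cRPKM in mutant and 17.5 cRPKM in wildtype libraries, with overlapping ranges. No tested gene of these last 4 lists was called (limma), with 2 of 2 mesothelial, 1 of 3 macrophage, 0 of 1 adrenal and 1 of 2 gonad genes at an unadjusted p under 0.05. Of 10 stroma markers Pdgfra was the 1 called lower, and Foxd1 was at 43.2 ± 4.43 cRPKM in mutant and 41.9 ± 5.04 cRPKM in wildtype kidneys (SD, n = 3 each).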
